A study of Mus musculus with 12 samples.

Results

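Serpins are a family of protease inhibitors, and 6 of them were followed here in mouse macrophages kept with or without bacterial lipopolysaccharide (LPS): Serpina3f, Serpina3g, Serpina3n, Serpinb2, Serpinb6a and Serpinb9. These 6 genes were selected from the measured values, mainly for their change with LPS, out of 37 serpin genes and 16920 genes in all. Their change with LPS is therefore given as a description and was not tested, whereas the comparison of genotypes and the interaction of genotype with LPS, which the rule did not name, were tested. Serpina3n had at most 11.04 counts in any library and missed the filter on low counts, too few to tell whether its level moved with LPS.

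A serpin presents a reactive loop that a target protease cuts as if it were a substrate, and the serpin then changes shape and traps the protease in an inactive complex. Clade A serpins are mostly secreted plasma proteins, and the mouse Serpina3 genes are a local expansion of what is a single gene in humans, encoding alpha-1-antichymotrypsin. Clade B serpins mostly stay inside the cell, where they guard it against proteases that leak from lysosomes and granules. Macrophages are rich in such proteases, and several serpins are known genes of the inflammatory response.

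To ask how loss of Ythdf1, a reader of N6-methyladenosine on mRNA, bears on the response to LPS, the study sequenced RNA from peritoneal macrophages in 12 libraries, 3 in each of 4 groups. The groups were wild type (WT) with PBS, WT with LPS at 1 µg/mL, Ythdf1-/- (KO) with PBS and KO with LPS, all for 6 h, and the replicates were described as independent biological samples. The mice were on a C57BL/6 background and 6 to 10 weeks old per the study's methods, and the knockout, made with CRISPR/Cas9, was in the whole body and not limited to macrophages. Cells were collected 3 days after injection of an irritant, named as starch broth in the series record and as thioglycollate in the methods, and were cultured overnight before treatment.

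Total counts per library lay between 21546274 and 22017005. The targeted gene was examined first. Without LPS, Ythdf1 averaged 43.5 ± 1.54 CPM (counts scaled to effective library size, SD, n = 3) in WT and 57.2 ± 1.53 CPM in KO. The means after LPS were 201 ± 9.37 CPM for WT and 198 ± 6.94 CPM for KO. By edgeR's quasi-likelihood test it was higher by KO label under PBS by 0.40 on the log2 scale (adjusted p = 0.000133, Benjamini-Hochberg), and differed by -0.03 under LPS (adjusted p = 0.724). Ythdf1 mRNA was thus not lost in the libraries labelled KO, so the genotype is called the KO label here, and every direction given for it rests on that label. The study showed tail genotyping of the line and YTHDF1 immunoblots of chimeric mice, and mRNA counts do not measure the protein. General macrophage markers were high throughout, their 10 genes summing to between 17837 and 20722 CPM per library. Replicate 1 of WT LPS stood apart from replicates 2 and 3 of its group, since the chi-square statistic averaged over genes was 30.7 and 23.9 against them and 2.97 between the other two. The tests and changes of the 6 serpins that rest on it, and the calls of other named genes that it decided, are also given without it. In bulk samples, fewer cells of a type and less RNA per cell cannot be told apart.

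All 6 genes lie in clusters of serpin genes (positions from the NCBI annotation of GRCm38.p6). Serpina3f (chr12:104214544-104221129, plus strand), Serpina3g (chr12:104236147-104241939, plus strand) and Serpina3n (chr12:104406646-104414334, plus strand) belong to a stretch of chromosome 12 in which all 13 genes of the tables are serpins. Serpinb2 (chr1:107500892-107525600, plus strand) is 1 of 6 genes of the tables in a stretch of chromosome 1, again all serpins. Serpinb6a (chr13:33917918-34002794, minus strand) and Serpinb9 (chr13:32997061-33017955, plus strand) lie in a stretch of chromosome 13 with 9 genes of the tables, of which 8 are serpins. The exception there is Nqo2, whose record lies inside that of Serpinb6a.

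The promoters of Serpina3g, Serpina3f and Serpina3n are shown because these neighbouring copies had very different levels after LPS, and that of Serpinb2 because, of the 4 serpins whose interaction could be measured after filtering, its response to LPS differed most between the labels. Each runs from 250 bases before to 50 bases after the most upstream RefSeq start in the promoter table (GRCm38.p6). Capitals mark letters that match 1 of 4 motifs searched on both strands: GAS (TTCNNNGAA, bound by STAT factors), the core of an interferon-stimulated response element (ISRE, GAAANNGAA), AP-1 (TGANTCA) and a 10-letter κB motif. The windows are chr12:104235897-104236196 for Serpina3g, chr12:104214294-104214593 for Serpina3f, chr12:104406458-104406757 for Serpina3n and chr1:107511173-107511472 for Serpinb2, all on the plus strand. The Serpinb2 window lies inside the gene's record.
Serpina3g: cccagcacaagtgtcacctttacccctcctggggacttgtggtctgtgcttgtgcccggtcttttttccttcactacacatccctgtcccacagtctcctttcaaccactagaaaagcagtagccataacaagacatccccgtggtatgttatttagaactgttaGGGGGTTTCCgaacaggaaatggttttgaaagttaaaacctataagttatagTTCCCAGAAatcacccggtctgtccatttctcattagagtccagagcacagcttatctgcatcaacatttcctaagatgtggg
Serpina3f: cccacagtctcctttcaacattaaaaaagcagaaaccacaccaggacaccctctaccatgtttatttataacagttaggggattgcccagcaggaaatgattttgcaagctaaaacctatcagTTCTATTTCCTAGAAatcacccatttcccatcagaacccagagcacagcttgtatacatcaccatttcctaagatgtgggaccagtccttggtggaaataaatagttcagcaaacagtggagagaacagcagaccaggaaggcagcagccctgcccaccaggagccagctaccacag
Serpina3n: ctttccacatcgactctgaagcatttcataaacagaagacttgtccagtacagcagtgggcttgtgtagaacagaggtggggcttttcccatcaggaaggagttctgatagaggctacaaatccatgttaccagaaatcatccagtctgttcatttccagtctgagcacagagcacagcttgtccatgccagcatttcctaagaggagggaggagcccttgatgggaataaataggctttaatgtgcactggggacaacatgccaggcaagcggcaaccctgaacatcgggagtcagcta
Serpinb2: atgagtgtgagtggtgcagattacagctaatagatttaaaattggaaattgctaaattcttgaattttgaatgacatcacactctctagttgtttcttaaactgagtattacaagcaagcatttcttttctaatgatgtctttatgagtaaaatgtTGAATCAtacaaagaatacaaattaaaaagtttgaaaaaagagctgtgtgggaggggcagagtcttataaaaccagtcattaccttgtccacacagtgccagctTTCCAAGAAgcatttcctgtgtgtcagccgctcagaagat

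A GAS match began 33 bases before the start of Serpina3g, 121 bases before that of Serpina3f and 10 bases after that of Serpinb2. Serpina3g also held a κB match at -85, Serpinb2 an AP-1 match at -94, and Serpina3f an ISRE core at -127 that runs into its GAS letters. Serpina3n held none of the 4. Outside these sequences, Serpinb6a had GAS matches at -77 and +20 and an ISRE core at -83, and Serpinb9 had an ISRE core at -45. Of all 32851 promoters in the table, 8.30% held the GAS letters, 8.56% the ISRE core, 7.81% AP-1 and 8.46% κB, so such matches are common and are a description of the letters only.

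**Figure D1:**
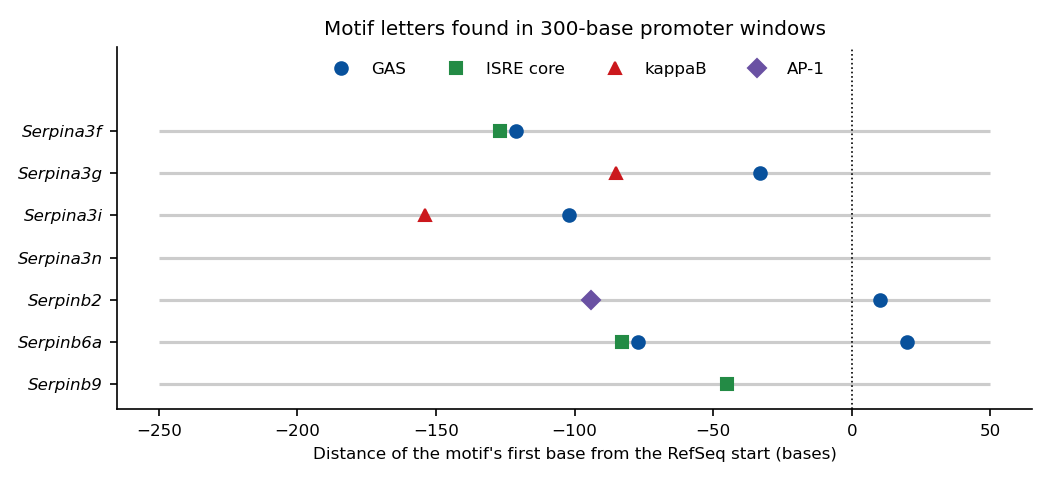
Positions of motif matches in 300-base promoter windows of the 6 serpins and of Serpina3i, a neighbour of Serpina3g, by distance in bases of the motif's first base from the RefSeq start. Serpina3n is the only window drawn with none of the 4 motifs, and GAS matches lie at -121, -33 and -102 in Serpina3f, Serpina3g and Serpina3i.

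Aligned to the promoter of Serpina3g, that of Serpina3f was identical at 83.7% of 202 aligned bases, that of Serpina3i at 81.7% of 229 and that of Serpina3n at 71.7% of 205. The aligned stretch around the GAS site of Serpina3g is shown for all 4 copies, with the 9 aligned site bases in capitals.
Serpina3g: taagttatagTTCCCAGAAatcacccggt
Serpina3f: tcagttctatTTCCTAGAAatcacccatt
Serpina3i: taagtgcttgTTCCCAGAAatcacccagt
Serpina3n: caaatccatgTTACCAGAAatcatccagt

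Counted from 1 at the first capital, Serpina3f differs from Serpina3g by C5T, which keeps the GAS letters, and Serpina3i has the same site as Serpina3g. Serpina3n differs by C3A and does not match GAS.

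Serpina3g, also called Spi2A, is an intracellular inhibitor of lysosomal cathepsins. It had 12.41, 21.66 and 27.52 counts in the WT PBS libraries and 12656.91, 16068.50 and 15725.11 in the WT LPS libraries. It had 7, 8 and 3 counts in KO PBS and 3680.39, 4060.34 and 3945.11 in KO LPS. Both treatments were far apart under either label, and every KO library lay below every WT library of the same treatment. The mean level was 845 ± 98.5 CPM (SD, n = 3) in WT LPS and 240 ± 12.3 CPM in KO LPS. LPS libraries were 1130-fold above PBS libraries in WT and 1108-fold in KO, a log2 change of 10.14 and 10.11.

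Serpina3f, its neighbour and the less studied copy, was practically silent without LPS. It had 0, 1.09 and 2.41 counts in WT PBS and 0 in all 3 KO PBS libraries, at or under the floor of 3 counts in each. It had 2712.40, 3380.29 and 3223.15 counts in WT LPS and 1356.86, 1414.94 and 1422.32 in KO LPS. The KO LPS libraries were all lower than the WT LPS libraries. Against the mean floor of the PBS libraries, Serpina3f was at least 1644-fold higher with LPS in WT and at least 816-fold higher in KO. Its mean level was 177 ± 18.3 CPM (SD, n = 3) in WT LPS and 86.1 ± 2.61 CPM in KO LPS.

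Serpina3n, a secreted acute-phase inhibitor that can block granzyme B and leukocyte elastase, hardly appeared. It had 10.44, 3.25 and 8 counts in WT PBS, 9.25, 11.04 and 7.22 in WT LPS, 4, 10 and 6 in KO PBS and 2.04, 5.14 and 5.15 in KO LPS. Counts of LPS and PBS libraries overlapped under both labels. Per kilobase and after scaling, WT LPS libraries (0.191 to 0.303 CPM per kb) lay just above WT PBS libraries (0.0520 to 0.175), while KO LPS (0.0595 to 0.151) and KO PBS (0.0678 to 0.170) overlapped. Alone among the 6 genes, it missed the filter on low counts. With no filter, edgeR's quasi-likelihood fit over 16860 genes gave a log2 difference between KO and WT under LPS of -1.05 (95% interval -2.22 to 0.13, adjusted p = 0.176, Benjamini-Hochberg). The change with LPS in WT was 0.98 on the log2 scale in that fit, with an interval from -0.05 to 2.0.

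Serpinb2 encodes plasminogen activator inhibitor 2 (PAI-2), an inhibitor of urokinase that stays largely inside macrophages. It had 115, 126 and 116 counts in WT PBS and 1188, 1474 and 1483 in WT LPS. It had 44, 53 and 72 counts in KO PBS and 3099, 3097 and 2669 in KO LPS. The KO libraries were thus the lower ones without LPS and the higher ones with LPS, with no overlap in either case. LPS libraries were 18.4-fold above PBS libraries in WT and 91.5-fold in KO. The mean level moved from 4.27 ± 0.205 to 78.8 ± 8.71 CPM (SD, n = 3) in WT and from 1.98 ± 0.517 to 182 ± 13.8 CPM in KO.

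Serpinb9, also called Spi6, inhibits granzyme B, the main killing protease of cytotoxic lymphocytes. It had 229, 270 and 222 counts in WT PBS and 728.90, 869.50 and 913.83 in WT LPS. It had 187, 200 and 184.67 counts in KO PBS and 451.91, 466.02 and 460.89 in KO LPS. LPS libraries were above PBS libraries under both labels, by 5.53-fold in WT and 4.22-fold in KO, and KO libraries were below WT libraries under both treatments. Its mean level after LPS was 47.8 ± 4.95 CPM (SD, n = 3) in WT and 28.3 ± 0.50 CPM in KO.

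Serpinb6a, the mouse counterpart of the human cathepsin G inhibitor SERPINB6, went the other way. It had 7472.99, 7601.17 and 7228.48 counts in WT PBS and 3054.63, 3591.04 and 3325.48 in WT LPS. It had 4893.60, 4967.21 and 4836.83 counts in KO PBS and 2000.23, 2065.97 and 1977.92 in KO LPS. After scaling, the mean was 267 ± 7.40 CPM (SD, n = 3) in WT PBS, 190 ± 14.0 in WT LPS, 172 ± 1.74 in KO PBS and 124 ± 2.08 in KO LPS. The level was lower with LPS by 1.41-fold in WT and 1.39-fold in KO, and lower by KO label under both treatments, with no overlap between groups. Its log2 change with LPS, -0.49 in WT and -0.47 in KO, kept its direction under each other scaling tried, although its size ran to -1.16 and -1.28 with library totals alone.

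**Figure D2:**
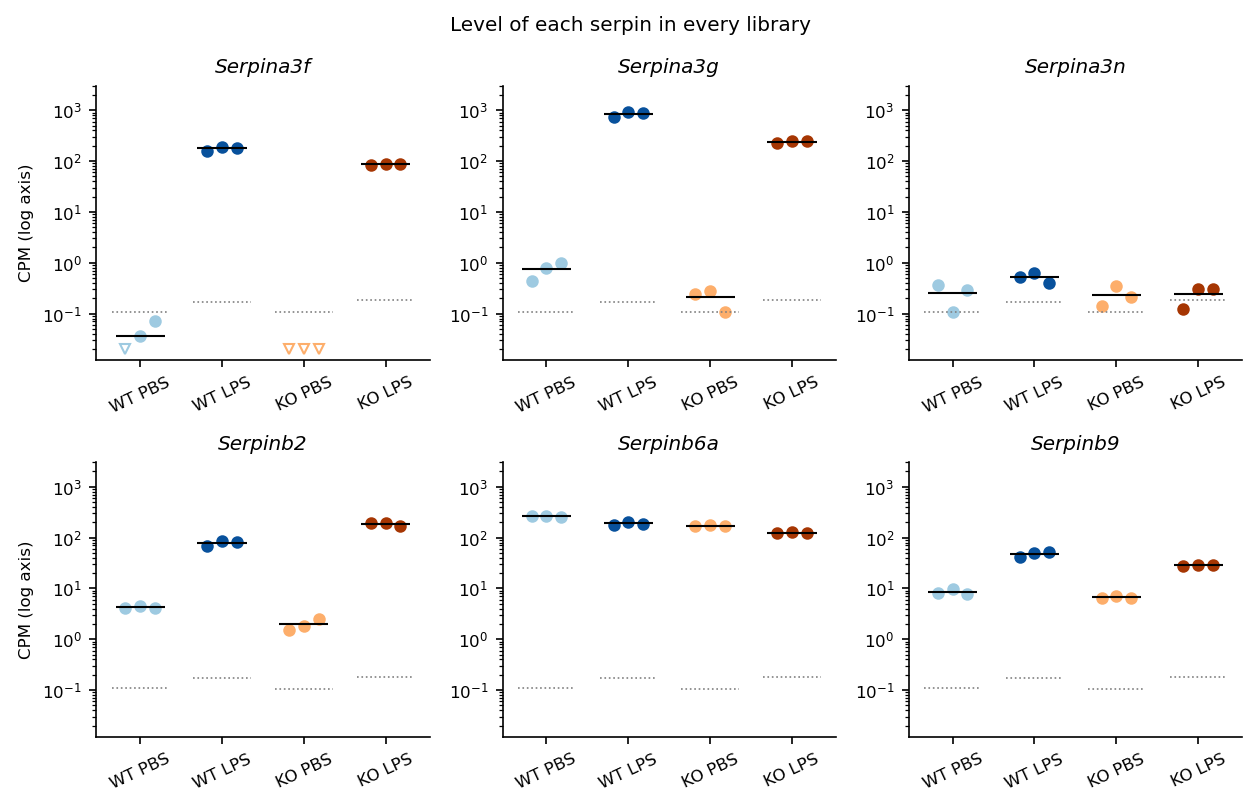
CPM (log axis) of each of the 6 serpins in all 12 libraries, by group. Points are libraries, bars are means, dotted lines mark the floor of 3 counts, and open triangles are libraries with 0 counts, drawn at the foot of the panel. Serpina3n stays near the floor in every group, and Serpinb2 is the only gene whose KO LPS libraries lie above the WT LPS libraries.

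Levels were compared between genes per kilobase of the longest coding transcript. In WT PBS, Serpinb6a led with 161 ± 4.47 CPM per kb (SD, n = 3), followed by Serpinb9 with 2.48 ± 0.263 and Serpinb2 with 2.14 ± 0.103. In WT LPS, Serpina3g led with 468 ± 54.7 CPM per kb, followed by Serpinb6a with 115 ± 8.47, Serpina3f with 78.8 ± 8.13, Serpinb2 with 39.5 ± 4.36 and Serpinb9 with 13.8 ± 1.42. In KO LPS, Serpina3g again led with 133 ± 6.81 CPM per kb, but Serpinb2 came second with 91.1 ± 6.92, ahead of Serpinb6a with 75.0 ± 1.26 and Serpina3f with 38.3 ± 1.16. The library ranges of neighbours in these orders did not overlap. In KO PBS, Serpina3g with 0.117 ± 0.0511 and Serpina3n with 0.114 ± 0.0519 CPM per kb could not be ordered, since their ranges overlapped. Serpina3n never exceeded 0.303 CPM per kb.

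The KO label was then tested against WT with edgeR's quasi-likelihood test and Benjamini-Hochberg adjustment over 12064 genes, of which 5 were among the 6 serpins. Under PBS, Serpina3f was at the floor on both sides, and the other 4 were all called, all lower by KO label. Of all genes tested in that comparison, 25.3% were called and 13.0% were called lower. Serpina3g fell by 1.79 on the log2 scale (SE 0.446, n = 3 per group, edgeR adjusted p = 0.00455), on counts that never exceeded 27.52. Serpinb2 fell by 1.11 (SE 0.170, adjusted p = 0.000170) and Serpinb6a by 0.63 (SE 0.0567, adjusted p = 1.02e-06). Serpinb9 fell by 0.36 (SE 0.101, adjusted p = 0.0154), and lost its call when WT PBS replicate 2 (adjusted p = 0.0863), KO PBS replicate 1 (0.0802) or KO PBS replicate 3 (0.0639) was left out.

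Under LPS, all 5 serpins tested were called, 4 lower and 1 higher by KO label. Of all genes tested there, 41.4% were called, 19.3% lower and 22.1% higher. Serpina3g fell most, by 1.82 on the log2 scale (SE 0.0951, edgeR adjusted p = 2.71e-09) or 3.52-fold. Serpina3f fell by 1.04 (SE 0.0811, adjusted p = 3.41e-07) or 2.06-fold, Serpinb9 by 0.75 (SE 0.0826, adjusted p = 3.35e-06) or 1.69-fold, and Serpinb6a by 0.61 (SE 0.0580, adjusted p = 8.15e-07) or 1.53-fold. Serpinb2 rose by 1.21 (SE 0.0919, adjusted p = 8.55e-08) or 2.31-fold. Without replicate 1 of WT LPS, these differences were -1.91, -1.12, -0.84, -0.66 and 1.12 in the same order, and all 5 calls held. The log2 changes with LPS in WT were then 10.24 for Serpina3g, 4.29 for Serpinb2, 2.55 for Serpinb9 and -0.45 for Serpinb6a, with a bound of 10.76 for Serpina3f.

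The interaction asks whether the change with LPS differed between the labels. It was called for 2 of the 5 serpins, beside 18.0% of all genes tested. Serpinb2 had a change with LPS that was larger by KO label by 2.31 on the log2 scale (SE 0.193, 95% interval 1.90 to 2.72, edgeR adjusted p = 1.01e-06). Serpinb9 had a change that was smaller by KO label, with a difference of -0.39 (SE 0.131, interval -0.67 to -0.11, adjusted p = 0.0484). The Serpinb9 call was lost in 10 of the 12 fits that left out a library, with adjusted p up to 0.132. Without replicate 1 of WT LPS, the interaction was 2.22 for Serpinb2 and -0.47 for Serpinb9, and both calls held. Serpinb6a had a difference of 0.02 (interval -0.15 to 0.19, adjusted p = 0.911), and Serpina3g one of -0.03 with a wide interval from -1.0 to 0.94 (adjusted p = 0.999), as its PBS counts were few. For Serpina3f the size of an interaction could not be measured, as PBS libraries were at the floor.

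**Figure D3:**
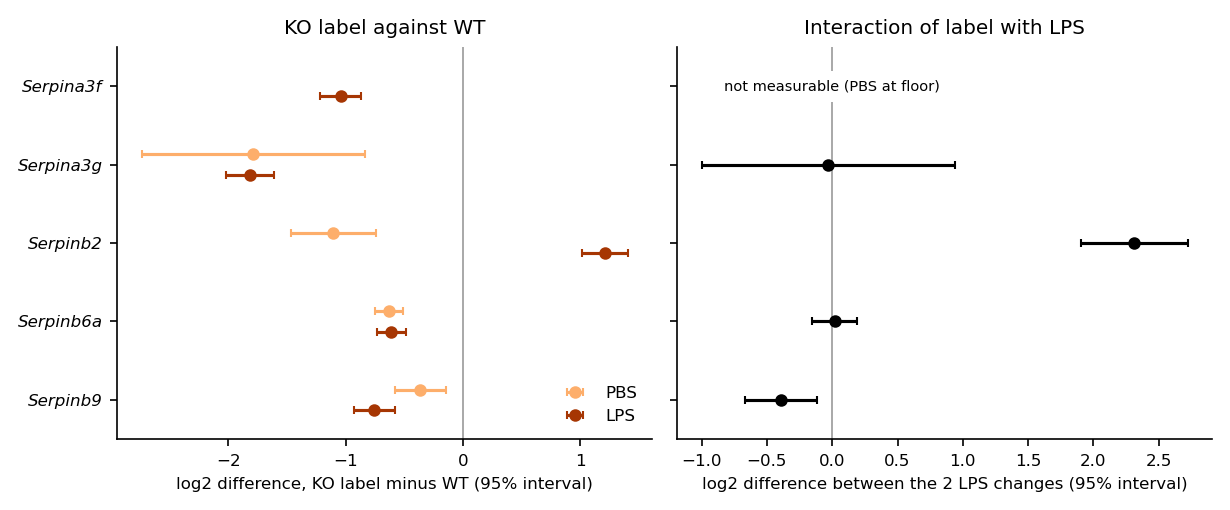
Left, log2 difference between KO and WT libraries under PBS and under LPS. Right, log2 difference between the 2 labels in the change with LPS. Points are edgeR estimates and bars 95% intervals, with 3 libraries per group. Serpinb2 is the only gene on opposite sides of 0 under PBS (-1.11) and LPS (1.21), while Serpinb6a sits at -0.63 and -0.61.

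Because Serpina3 copies share sequence, the division of reads between them was examined. Of the 50-base words of each gene's annotated transcripts, the length of the reads, 15.5% in Serpina3g, 10.6% in Serpina3f and 6.90% in Serpina3n also occurred in transcripts of another gene. Serpina3g shared most with the pseudogene Serpina3h (8.89%), then with Serpina3i (6.84%) and Serpina3f (6.29%). The deposited counts carried decimals, as arises where reads are shared out, in 9 of 12 libraries for Serpina3g and in 8 for each of Serpina3f and Serpina3n. Serpinb6a carried decimals in all 12, with 25.1% of its words found elsewhere and 12.5% in Nqo2 alone. Serpinb9 shared 0.378% and had decimals in 7 libraries, and Serpinb2 shared 10.4%, with Serpinb10, but had whole counts in all 12.

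The 8 Serpina3 genes of the tables were also summed into 1 feature before the fit, which removes the division of reads between them. The sum fell by KO label by 1.65 on the log2 scale under LPS (SE 0.0853, edgeR adjusted p = 1.38e-09) and by 1.32 under PBS (SE 0.293, adjusted p = 0.00246). The interaction of the sum was -0.32 (SE 0.305, adjusted p = 0.547). Without replicate 1 of WT LPS, the sum fell by 1.74 under LPS. Serpina3g held 81.4%, 81.9% and 82.2% of all Serpina3 counts in WT LPS but 72.5%, 73.6% and 72.7% in KO LPS. There were 4.67, 4.75 and 4.88 counts of Serpina3g per count of Serpina3f in WT LPS and 2.71, 2.87 and 2.77 in KO LPS. The ratios did not overlap, with or without replicate 1 of WT LPS. An exact two-sided permutation test cannot go below p = 0.1 with 3 against 3 libraries, the value it gave here, so the difference in ratio stands as a description. How far shared reads bear on this ratio was not tested.

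**Figure D4:**
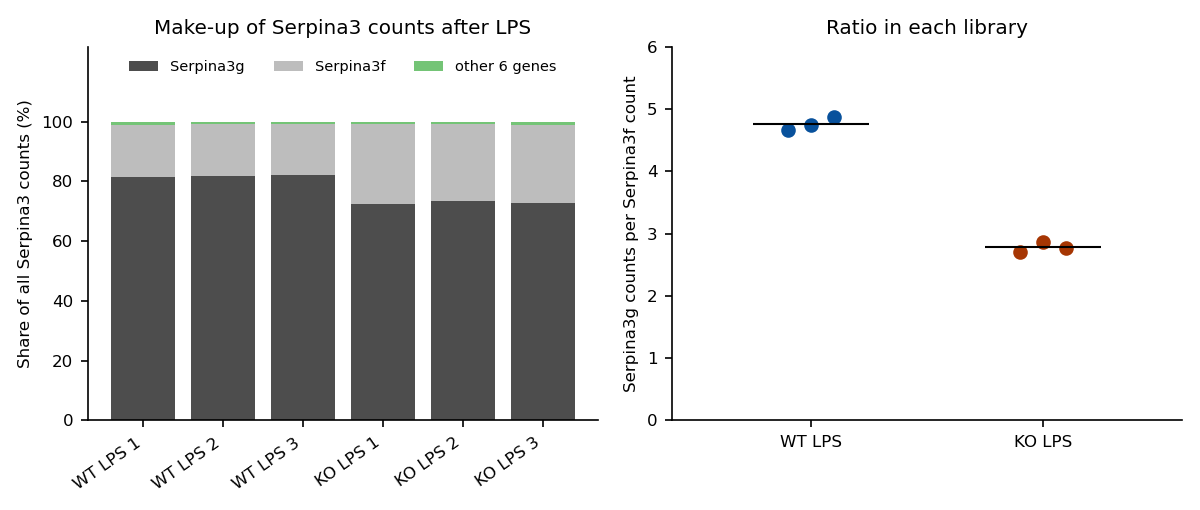
Left, share of all Serpina3 counts (%) held by Serpina3g, Serpina3f and the other 6 genes in each LPS library. Right, counts of Serpina3g per count of Serpina3f in each LPS library, with means as bars. Serpina3g holds 81.4% to 82.2% in WT LPS and 72.5% to 73.6% in KO LPS, and the ratio is 4.77 ± 0.107 against 2.79 ± 0.0792 (SD, n = 3).

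The genes most like each serpin across the 12 libraries were found from log2 CPM values centred on each gene's mean, by the root-mean-square (RMS) difference to 12063 other genes. This is a description, in which the LPS change carries most weight. Nearest to Serpina3f were Ptx3, the soluble pattern-recognition molecule pentraxin 3 (RMS difference 0.41), Serpina3g (0.53) and Il27 (0.53). Nearest to Serpina3g were Serpina3f (0.53), Ptx3 (0.68) and Iigp1, an interferon-inducible GTPase (0.76). Nearest to Serpinb2 were Phf11d (0.36), Zbp1, a sensor of Z-form nucleic acid (0.39), and Irf7, a transcription factor of the interferon response (0.39). Nearest to Serpinb6a were Maoa (0.10), Ripk3 (0.10) and Trf (0.10), and nearest to Serpinb9 were Rilpl1 (0.13), Tbc1d13 (0.17) and Treml2 (0.17).

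The other 31 serpins of the tables were set beside these 6. Only 12 of them passed the filter, and with LPS 6 of the 12 were called higher and 2 lower in WT, and likewise 6 and 2 in KO. Calls were common there, since 76.7% of all genes were called in WT (36.5% higher, 40.2% lower) and 79.9% in KO (38.8% higher, 41.1% lower). The median log2 change of those with no group at the floor was 0.28 in WT (11 genes) and 0.72 in KO (10 genes), beside -0.05 and -0.04 over all genes. In the fit without replicate 1 of WT LPS, the median in WT was 0.48 (12 genes). Serpina3i, also with a GAS match, was at least 86.4-fold higher with LPS in WT and at least 24.7-fold higher in KO. It fell by KO label under LPS by 1.83 on the log2 scale (SE 0.176, edgeR adjusted p = 1.62e-06), from 9.30 ± 0.370 to 2.61 ± 0.810 CPM (SD, n = 3). Serpinb8, next to Serpinb2 and Serpinb10 on chromosome 1, had log2 changes with LPS of -2.35 in WT and -1.59 in KO.

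By KO label, 2 of the 12 other serpins were called lower and 0 higher under PBS, and 5 lower and 1 higher under LPS. Over all genes, 25.3% were called under PBS (13.0% lower) and 41.4% under LPS (19.3% lower, 22.1% higher). Their median log2 difference was -0.32 under PBS and -0.34 under LPS (11 genes each with no group at the floor), beside 0.00 over all genes. In the fit without replicate 1 of WT LPS, these medians were -0.52 and -0.37 (12 genes each), beside 0.00 and 0.02 over all genes. Serpinh1, the collagen chaperone HSP47, fell by 0.90 under PBS (SE 0.0761, edgeR adjusted p = 4.75e-07) and by 1.02 under LPS (adjusted p = 9.63e-08). Serpinb9b, a neighbouring relative of Serpinb9, fell by 0.99 under PBS and 0.69 under LPS (adjusted p = 0.0144 and 0.0317). The others called lower under LPS were Serpina3i, Serping1 (C1 inhibitor, by 0.95) and Serpinf1 (by 1.11). Serpinb8 was the 1 called higher, by 0.74 (adjusted p = 7.31e-05). The interaction was called for 2 of the 12, among them Serpinb8 (0.75), beside 18.0% of all genes, and the median over 10 genes was -0.01. Without replicate 1 of WT LPS only that of Serpinb8 remained called (0.65).

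**Figure D5:**
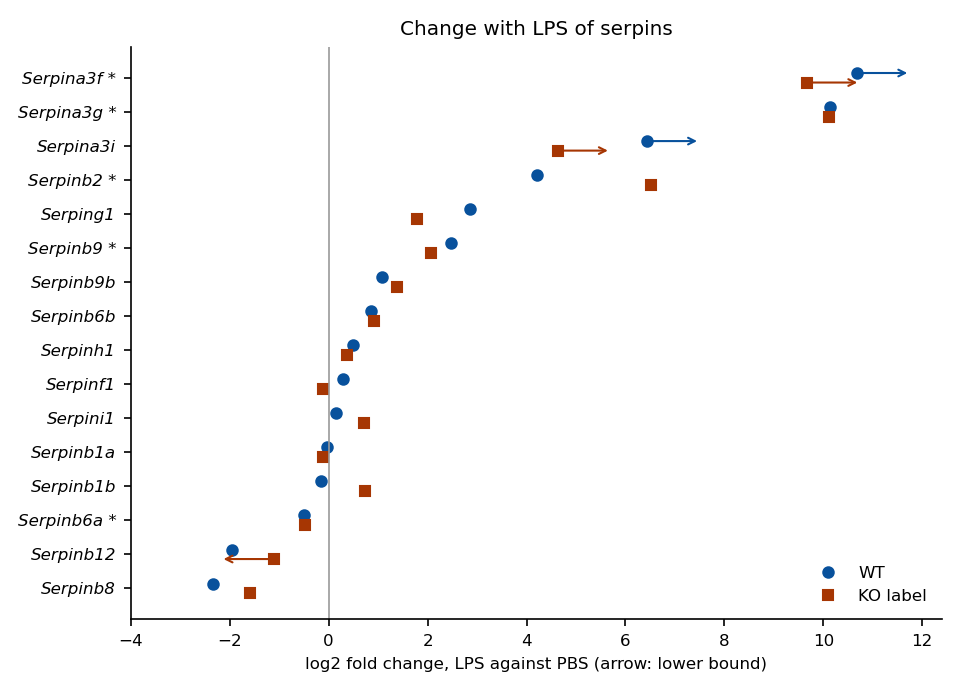
Log2 fold change with LPS in WT (circles) and KO (squares) libraries of serpins that passed the filter, with an asterisk on the 5 followed here. Arrows mark lower bounds where a group was at or under the floor of 3 counts. Serpina3f, Serpina3g and Serpina3i are at the top, and Serpinb8 at the foot.

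Genes around the serpins were described from lists of their partners. Of the plasminogen activation list, 9 genes were tested, and under LPS 2 were higher and 1 lower by KO label (median -0.12, beside 0.00 over all genes). Of all genes, 41.4% were called there. Without replicate 1 of WT LPS, 4 of the 9 were called, with a median of -0.06, beside 0.02 over all genes. Plau, encoding urokinase, fell by 0.51, while its receptor Plaur rose by 0.63 (edgeR adjusted p = 1.27e-05 and 1.22e-06). Plgrkt, a plasminogen receptor, rose by 0.36. The interaction was called for 4 of the 9, including Plaur (0.67) and Anxa2 (0.35), with Thbd at -0.77, and for 3 without replicate 1 of WT LPS, beside 18.0% of all genes. Of 12 lysosomal proteases tested, 7 were lower and 1 was higher by KO label under LPS, with a median of -0.29, beside 19.3% of all genes lower, 22.1% higher and a median of 0.00. Those with the largest falls were Ctsf (0.87), Ctsl (0.83) and Ctsk (0.73), and the 1 that rose was Ctss (0.23). Without replicate 1 of WT LPS, 10 were lower and 0 higher, and Ctss lost its call (0.12, edgeR adjusted p = 0.0593). Of the 3 cystatins tested, which inhibit cathepsins as Serpina3g does, Cst3 was lower by 0.23 and the other two were not called. Of 8 caspases, 4 were higher and 2 lower under LPS, with a median of 0.18, again beside 22.1% and 19.3% of all genes and a median of 0.00. Those higher were led by Casp4 (0.52), which senses LPS inside the cell, and Casp1 (0.44), and those lower were Casp9 (-0.43) and Casp2 (-0.30). Without replicate 1 of WT LPS, the median of the 8 caspases was 0.10, beside 0.02 over all genes. None of the granule serine proteases, the class that holds granzyme B and cathepsin G, passed the filter, although 11 were in the tables.

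Markers of other cells moved with some of these results, and their part in them was not tested. The 11 resident peritoneal macrophage markers summed to 18.5 to 20.8 CPM in WT PBS, 15.7 to 16.6 in KO PBS, 29.6 to 30.6 in WT LPS and 17.9 to 20.9 in KO LPS. Lyve1 was at or under the floor in every group. Of the 9 tested, 5 were lower and 1 higher by KO label under PBS, and 5 lower and 0 higher under LPS. Of all genes, 25.3% were called under PBS (13.0% lower), and under LPS 19.3% were lower and 22.1% higher. Gata6, the transcription factor that defines these cells, was lower by 1.3 under PBS and by 1.06 under LPS (edgeR adjusted p = 0.000201 and 0.00469), while Icam2 was higher by 0.50 under PBS (adjusted p = 0.0187) and F5 was not called. The 10 markers of monocyte-derived macrophages summed to 2214 to 2363 CPM in WT PBS, 1960 to 2141 in KO PBS, 2647 to 3345 in WT LPS and 2548 to 2685 in KO LPS, so their sums overlapped by label under LPS but not under PBS. Of the 9 tested, 5 were lower and 0 higher by KO label under PBS (median -0.43), and 4 were lower and 1 higher under LPS (median -0.27), beside the same shares of all genes and medians of 0.00. The sum of the neutrophil markers was 203 to 206 CPM in WT PBS, 316 to 321 in KO PBS, 582 to 622 in WT LPS and 746 to 797 in KO LPS. It came with the neutrophil genes Elane, Mpo, Retnlg and S100a9 at or under the floor in every group. The sum of the mast cell markers moved as Serpinb2 did, with 1.11 to 1.27 CPM in WT PBS, 0.420 to 0.842 in KO PBS, 144 to 150 in WT LPS and 285 to 290 in KO LPS. Only Kit and Hdc of that list passed the filter, and Cma1, Cpa3, Mcpt4 and Tpsb2, proteases that define mast cells, were at or under the floor in every group. Kit, a growth factor receptor, had an interaction of 2.94 (edgeR adjusted p = 9.77e-05), and Hdc, which makes histamine, was higher by KO label under LPS by 0.97. Mesothelial markers summed to 11.8 to 13.1 CPM in WT PBS, 6.80 to 11.0 in KO PBS, 11.9 to 15.0 in WT LPS and 9.02 to 13.7 in KO LPS. T and NK cell markers summed to at most 3.33 CPM in any library and B cell markers to at most 1.99, and the 4 hepatocyte markers of the tables, among them clade A serpins of the liver, were at or under the floor throughout.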

How the data were processed

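RNA was sequenced as 50-base single-end reads on a BGISEQ-500. The authors deposited expected counts (estimated counts per gene, not whole numbers and not scaled) in 1 table of 16920 genes per library. The submitters' notes name Bowtie2, RSEM 1.3.1 and GRCm38.p6, whereas the paper's methods name STAR and HTSeq. Sharing out reads between gene copies, as RSEM does, can move counts between Serpina3 genes.

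Expected counts were rounded and analysed with edgeR 4.0.16 (R 4.3.3, limma 3.58.1; TMM scaling, filterByExpr on the 4 groups, 1 quasi-likelihood fit with robust dispersions and 1 mean per group over all 12 libraries, two-sided, Benjamini-Hochberg over 12064 genes, threshold 0.05). Standard errors are Wald errors from that fit. The typical biological coefficient of variation was 6.99%. CPM values use TMM-scaled library sizes, and the floor of 3 counts equalled 0.105 to 0.187 CPM. Without molecular identifiers, this floor reflects counting error alone. Where a group lay wholly at or under the floor, a fold is a lower bound against it.

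Alternatives were RLE and upper-quartile scaling, library totals alone, DESeq2 1.42.0, no filter, a minimum of 10 counts in each library, a blocking term for the replicate number, fits of the compared libraries only, rounding down, summed Serpina3 genes, and each library left out in turn. The edgeR code was tested on simulated data. The members and lists were chosen with earlier results of these data known. Named genes are the 6 serpins in every library, the genes called in each list with the 3 largest changes each way, counts of 5 or fewer spelled out, and the 3 genes nearest to each serpin. Serpina3f, Serpinb2 and Serpinb6a have 2 starts each in the promoter table, of which the most upstream was used. Promoters came from RefSeq (GRCm38.p6), 50-base words and lengths from GENCODE transcripts, and positions from NCBI's gene table, where all 37 serpins of the tables were found by gene number. Protein sequences were not used here, and the values of some list genes are not reported here.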

Additional observations from a re-analysis of the deposited data

Results flagged for a closer look

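The change with LPS differed between the labels for a pair of the serpins, by the interaction term of edgeR's quasi-likelihood fit. For Serpinb2 the change was larger by KO label by 2.31 on the log2 scale (adjusted p = 1.01e-06), with KO libraries lowest in PBS and highest in LPS in 3 of 3 libraries each. The group means of Phf11d, Zbp1 and Irf7, the genes nearest to it, crossed in the same way. For Serpinb9 it was smaller by KO label, with a difference of -0.39 (adjusted p = 0.0484). With each library left out in turn the difference ran from -0.48 to -0.33, and the call was lost in 10 of 12 fits.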

How the results depend on the processing

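Of 669 values from alternatives over 58 results, 621 were classed as the same, 13 lost a call, 35 moved and 0 reversed. For tested differences, this class required the same side of the threshold and set no limit on size. A difference that was not called could also change sign, as the Serpina3g interaction did (-0.37 to 0.20 with a library left out). Changes with LPS had to keep their direction and approximate size, and counts of called genes their approximate size. The 13 lost calls were all of Serpinb9 with a library left out, where its difference under PBS ran from -0.42 to -0.27 and its interaction from -0.48 to -0.33. The log2 changes with LPS depended most on scaling. With upper-quartile scaling they were 3.89 and 6.16 (WT and KO) for Serpinb2, -0.80 and -0.83 for Serpinb6a, 2.16 and 1.72 for Serpinb9, with bounds of 10.37 and 9.32 for Serpina3f. With library totals alone they were 9.48 and 9.32 for Serpina3g, 3.54 and 5.72 for Serpinb2, -1.16 and -1.28 for Serpinb6a, 1.81 and 1.28 for Serpinb9, with bounds of 10.02 and 8.87. In KO, Serpinb6a was -0.45 with RLE scaling and with DESeq2, and -0.52 with no filter and with at least 10 counts in every library. In KO, Serpinb9 was 2.03 and the Serpina3f bound 9.63 with no filter, and 2.03 and 9.62 with at least 10 counts. The summed Serpina3 genes had 9.51 in KO.

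Scaling moved the median of all genes in the LPS comparisons by -0.31 (WT) and -0.36 (KO) with the upper quartile and by -0.66 and -0.80 with totals, and that of the interaction by -0.14 with totals. The share of calls that were higher was 47.6% (WT) and 48.6% (KO) in the LPS comparisons, 48.6% by KO label in PBS, 53.4% in LPS and 54.2% in the interaction. With the upper quartile it was 32.5%, 33.8%, 42.2%, 41.6% and 43.1%, and with totals 21.2%, 20.8%, 61.6%, 37.9% and 24.4%. Genes called by KO label under PBS were 3058, but 4627 with only the libraries compared, and 1992 to 3896 with a library left out (1992 without KO PBS replicate 1). Cystatins called with LPS numbered 3 in each label and 1 with the upper quartile. With totals, 5 plasminogen activation genes were called under LPS in place of 3, 12 lysosomal proteases with LPS in KO in place of 7, 5 in the interaction in place of 3, and 2 caspases under PBS in place of 1. Without WT LPS replicate 1, 4 caspases and 6 lysosomal proteases were called under PBS in place of 1 and 3, 1 cystatin under PBS in place of 0, and 1 granule protease, lower with LPS under both labels, passed the filter. The cause of these shifts was not tested.

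Correlations of same-numbered libraries ran from -0.0758 to 0.127, and 8 of 18 correlated best with their own number. In KO, each PBS library correlated best with the LPS library of its own number (0.0143, 0.0462 and 0.0364). In WT, only replicate 1 did so (0.0806). With 3 replicates per group, these values cannot decide whether replicate numbers pair the libraries. With the replicate number as a block, 2969 genes were called under PBS, the Serpinb2 interaction was 2.32 and that of Serpinb9 -0.39 (edgeR adjusted p = 0.0392), and no call of the serpins changed. Counts of Serpina3g in PBS and of Serpina3n throughout were too few for narrow intervals.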
